A study of Homo sapiens with 5 samples.

Results

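Transcript levels of the YAP, TAZ, TEAD and VGLL factors were examined in 5 human cell lines. The 10 genes were chosen by name, with exactly 1 matching row for each among the 57905 rows of the expression table: the coactivator genes YAP1 and WWTR1 (which encodes TAZ), the DNA-binding factor genes TEAD1, TEAD2, TEAD3 and TEAD4, and the vestigial-like cofactor genes VGLL1, VGLL2, VGLL3 and VGLL4. MCC13, MKL-1, MKL-2 and WaGa (n = 4) are lines of Merkel cell carcinoma, a neuroendocrine skin cancer, and REH (n = 1) is a pre-B-ALL line, from an acute leukemia of B-cell precursors, in a series about the B-lineage factor PAX5. All 5 lines had the genotype label WT, no treatment was named, and all were grown in RPMI with fetal bovine serum. Levels were deposited as TPM, an abundance per transcript length that sums to a fixed total over a library. Each line is a single line with 1 library, so n counts lines, and line and library cannot be told apart. An SD is a spread between lines.

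YAP and TAZ do not bind DNA themselves. They enter the nucleus when the Hippo kinase cascade is inactive and drive transcription by binding TEAD factors at DNA. When the cascade is active, the LATS kinases phosphorylate YAP and TAZ and hold them in the cytoplasm. VGLL proteins bind the same factors: VGLL4 competes with YAP for TEAD and represses, while VGLL1, VGLL2 and VGLL3 act as TEAD cofactors in particular tissues. Loss of YAP and TAZ expression is known from several small-cell neuroendocrine cancers.

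MCC13 carried the Merkel cell carcinoma label but few of the markers of that cell type. Of 12 Merkel and neuroendocrine markers, 3 reached 1 TPM in MCC13, against 12 in MKL-1 and MKL-2, 11 in WaGa and 2 in REH. ATOH1, INSM1, ISL1, KRT20 and NEUROD1 were listed at 0 in MCC13. The summed level of the list was 40.2 TPM in MCC13, 4390.3 to 7878.5 TPM in the other 3 Merkel cell carcinoma lines, and 77.2 TPM in REH. For 10 mesenchymal markers the sum was 9918.9 TPM in MCC13, 39.1 to 1317.9 TPM in the other 3 Merkel cell carcinoma lines and 1276.0 TPM in REH. For 8 epithelial markers it was 545 TPM in MCC13, 947 to 1547.7 TPM in the other 3 lines and 1.296 TPM in REH. For 10 pre-B markers it was 2.75, 109 to 208 and 6223.7 TPM in the same order. KRT8 and KRT18 held most of the epithelial sum in MCC13, at 312.7 and 229.1 TPM. EPCAM, CDH1 and ESRP1 stood at 0.484 TPM or less in MCC13, against 7.96 TPM or more in the other 3 Merkel cell carcinoma lines. KRT14 went the other way, at 1.19 TPM in MCC13 against a listed 0. Between 15949 and 16921 genes reached 1 TPM in a line. REH listed 21 genes at 0 that stood at 50 TPM or more in every other line, against 0 or 1 gene in each of the other lines, so a 0 in REH is reported only as listed. In such bulk libraries, fewer cells with a transcript and less of it per cell cannot be told apart.

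Promoter sequences of 8 of the 10 genes were found in the RefSeq promoter table (build GRCh38.p14), in 14 windows that run from 250 bases before to 50 bases after an annotated start. Those shown belong to the 5 genes that were higher in MCC13 together. For TEAD2, with 2 annotated starts, the window with more CpG dinucleotides is shown, and for WWTR1 both windows are shown because they differ most. Capitals mark the TEAD motif GGAATG and the GC box GGGCGG on either strand, with CATTCC and CCGCCC as their reverse complements, and neighbouring GC boxes may overlap.
YAP1 (chr11:102110197-102110496, + strand): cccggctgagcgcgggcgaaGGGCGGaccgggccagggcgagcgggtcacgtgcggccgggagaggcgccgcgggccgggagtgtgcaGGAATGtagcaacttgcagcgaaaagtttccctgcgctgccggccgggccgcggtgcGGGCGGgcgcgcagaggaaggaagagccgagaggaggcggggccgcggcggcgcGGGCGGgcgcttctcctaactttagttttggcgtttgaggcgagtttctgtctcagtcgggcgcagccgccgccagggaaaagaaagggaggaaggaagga
WWTR1 (chr3:149657976-149658275, - strand): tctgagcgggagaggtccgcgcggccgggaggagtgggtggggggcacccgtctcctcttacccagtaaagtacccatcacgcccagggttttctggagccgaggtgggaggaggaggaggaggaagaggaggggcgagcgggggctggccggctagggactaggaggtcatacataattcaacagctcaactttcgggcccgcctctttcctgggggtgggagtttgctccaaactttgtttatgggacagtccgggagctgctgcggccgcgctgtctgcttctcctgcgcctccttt
WWTR1 (chr3:149703224-149703523, - strand): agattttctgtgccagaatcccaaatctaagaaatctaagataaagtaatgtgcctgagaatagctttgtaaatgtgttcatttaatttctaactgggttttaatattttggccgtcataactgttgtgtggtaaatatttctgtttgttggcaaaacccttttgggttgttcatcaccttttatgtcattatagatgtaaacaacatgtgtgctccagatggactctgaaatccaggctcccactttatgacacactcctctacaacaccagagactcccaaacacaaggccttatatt
TEAD2 (chr19:49362367-49362666, - strand): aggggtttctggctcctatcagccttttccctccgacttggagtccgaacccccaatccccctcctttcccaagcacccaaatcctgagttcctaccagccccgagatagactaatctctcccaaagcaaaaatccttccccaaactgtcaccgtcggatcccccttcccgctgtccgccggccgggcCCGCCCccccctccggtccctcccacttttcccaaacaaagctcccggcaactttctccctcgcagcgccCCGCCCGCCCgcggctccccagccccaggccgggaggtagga
TEAD3 (chr6:35497030-35497329, - strand): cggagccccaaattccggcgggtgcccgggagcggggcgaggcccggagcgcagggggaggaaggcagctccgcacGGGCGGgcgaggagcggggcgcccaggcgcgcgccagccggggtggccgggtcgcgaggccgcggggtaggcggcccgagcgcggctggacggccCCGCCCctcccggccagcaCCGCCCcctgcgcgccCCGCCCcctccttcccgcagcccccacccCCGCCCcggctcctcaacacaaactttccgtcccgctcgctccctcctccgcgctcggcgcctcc
VGLL3 (chr3:86991100-86991399, - strand): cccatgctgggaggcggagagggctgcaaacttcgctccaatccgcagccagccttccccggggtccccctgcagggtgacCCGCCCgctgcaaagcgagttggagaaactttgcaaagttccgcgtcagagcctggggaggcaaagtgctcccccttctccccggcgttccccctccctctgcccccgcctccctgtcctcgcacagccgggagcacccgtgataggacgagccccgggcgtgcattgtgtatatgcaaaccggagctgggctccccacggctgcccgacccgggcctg

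The YAP1 window held 1 TEAD motif, with its first base at position -162 from the start, together with 3 GC boxes. None of the other windows shown held the TEAD motif. The window of VGLL1 held it also, in the form CATTCC, and none of the 5 windows of VGLL4 did. Over all 35116 promoter windows of the table, 14.0% held the TEAD motif and 45.0% the GC box. The windows shown differed in CpG content, from 44 CpG in TEAD3 and 40 in YAP1 through 22 in VGLL3, 19 in TEAD2 and 18 in the first WWTR1 window to 1 in the second WWTR1 window. The median over all windows was 14. A match of letters is a description of the sequence and was not linked to any level.

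The coactivator genes YAP1 and WWTR1 were expressed in MCC13 and reached at most 1.83 TPM in the other 4 lines. YAP1 (ENSG00000137693) stood at 100.1 TPM in MCC13, at 0.0104 TPM in WaGa, and was listed at 0 in MKL-1, MKL-2 and REH. WWTR1 (ENSG00000018408) stood at 408 TPM in MCC13 and 1.83 TPM in MKL-1, and was listed at 0 in MKL-2, WaGa and REH. MCC13 was the one high line for both genes, and MKL-1 was the one line outside MCC13 in which either gene reached 1 TPM. Among the 4 Merkel cell carcinoma lines, 1466 of 20698 genes tested reached 1 TPM in MCC13 alone, YAP1 among them. WWTR1 in MCC13 was 222-fold its level in MKL-1. It lay at percentile 97.8 of the genes at 1 TPM or more in MCC13, and YAP1 at percentile 87.0. Of the summed coactivator level of 508 TPM in MCC13, WWTR1 made up 80.3% and YAP1 19.7%, so the TAZ transcript was 4.07 times as abundant as the YAP transcript. The antisense row WWTR1-AS1 stood at 2.07 TPM in MCC13 and 0.621 TPM in MKL-1 and was listed at 0 in MKL-2, WaGa and REH. The libraries keep the strand, but the sources used here do not state strand use in counting, so reads of WWTR1 and of its antisense row may not be fully separated.

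**Figure D1:**
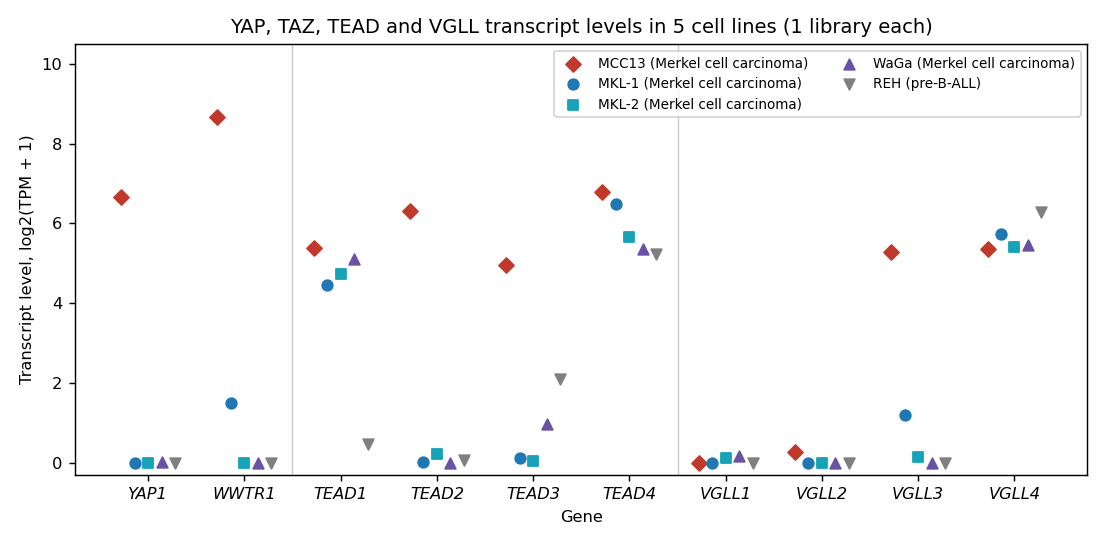
Transcript level of each of the 10 genes on the y axis, as log2(TPM + 1), with 1 point per line (1 library each) and the genes in family order on the x axis. MCC13 stands apart for YAP1 (100.1 TPM), WWTR1 (408 TPM), TEAD2, TEAD3 and VGLL3, TEAD4 and VGLL4 are present in every line, and REH is the low line for TEAD1.

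The TEAD genes fell into a pair expressed in every Merkel cell carcinoma line and a pair that reached 1 TPM in MCC13 alone among these 4 lines. TEAD4 (ENSG00000197905), best known from the trophectoderm of the early embryo, stood at 110.2 TPM in MCC13. MKL-1 had 88.1, MKL-2 49.3 and WaGa 40.1 TPM of it, and REH 36.4 TPM. It was above 36 TPM in all 5 lines, with MCC13 and MKL-1 on top, and WaGa and REH next to each other at the low end. TEAD1 (ENSG00000187079), a factor with roles in muscle and heart, stood at 41.1 TPM in MCC13, where MKL-1 had 20.9, MKL-2 25.7 and WaGa 33.8 TPM and REH had 0.397 TPM. The 4 Merkel cell carcinoma lines lay within 1.97-fold of each other, and REH lay far below all of them.

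TEAD2 (ENSG00000074219), studied mainly in the mouse embryo and its neural tissue, stood at 78.2 TPM in MCC13, while MKL-1 had 0.0191, MKL-2 0.163, WaGa a listed 0 and REH 0.0528 TPM. TEAD3 (ENSG00000007866), known from placenta, stood at 30.04 TPM in MCC13, while MKL-1 had 0.0921, MKL-2 0.0398, WaGa 0.953 and REH 3.32 TPM. For both genes MCC13 was above every other line, and REH, not a Merkel cell carcinoma line, was next for TEAD3. The 4 TEAD genes together summed to 259 TPM in MCC13, with MKL-1 at 109, MKL-2 at 75.2, WaGa at 74.8 and REH at 40.2 TPM. TEAD4 was the main TEAD transcript in each line, with 42.5% of the sum in MCC13 and shares of 80.8% (MKL-1), 65.6% (MKL-2), 53.5% (WaGa) and 90.6% (REH) in the others. TEAD1 came second in MKL-1, MKL-2 and WaGa, at 19.1%, 34.2% and 45.2% of the sum, while TEAD2 came second in MCC13 at 30.1% and TEAD3 in REH at 8.27%.

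Among the cofactor genes, VGLL4 was present in all 5 lines and VGLL3 in MCC13. VGLL4 (ENSG00000144560), the TEAD repressor, stood at 40.4 TPM in MCC13, where MKL-1 had 52.1, MKL-2 41.8 and WaGa 43.4 TPM and REH had 76.6 TPM. These 4 Merkel cell carcinoma lines lay within 1.29-fold of each other, the narrowest range among the genes above 1 TPM in all 4, and REH was above each of them. VGLL3 (ENSG00000206538) stood at 38.1 TPM in MCC13, with MKL-1 at 1.29 and MKL-2 at 0.114 TPM, and was listed at 0 in WaGa and REH. MCC13 was again the high line, 29.6-fold above MKL-1, and MKL-1 the second, as for WWTR1. VGLL1 (ENSG00000102243) reached at most 0.135 TPM, in WaGa, with 0.0806 TPM in MKL-2 and a listed 0 in MCC13, MKL-1 and REH. VGLL2 (ENSG00000170162), a cofactor of skeletal muscle, stood at 0.202 TPM in MCC13 and was listed at 0 elsewhere. Both stayed below 1 TPM in every line. VGLL3 made up 48.4% of the summed VGLL level in MCC13, while VGLL4 made up 97.6% to 99.7% in the other 3 Merkel cell carcinoma lines and all of it in REH as listed.

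**Figure D2:**
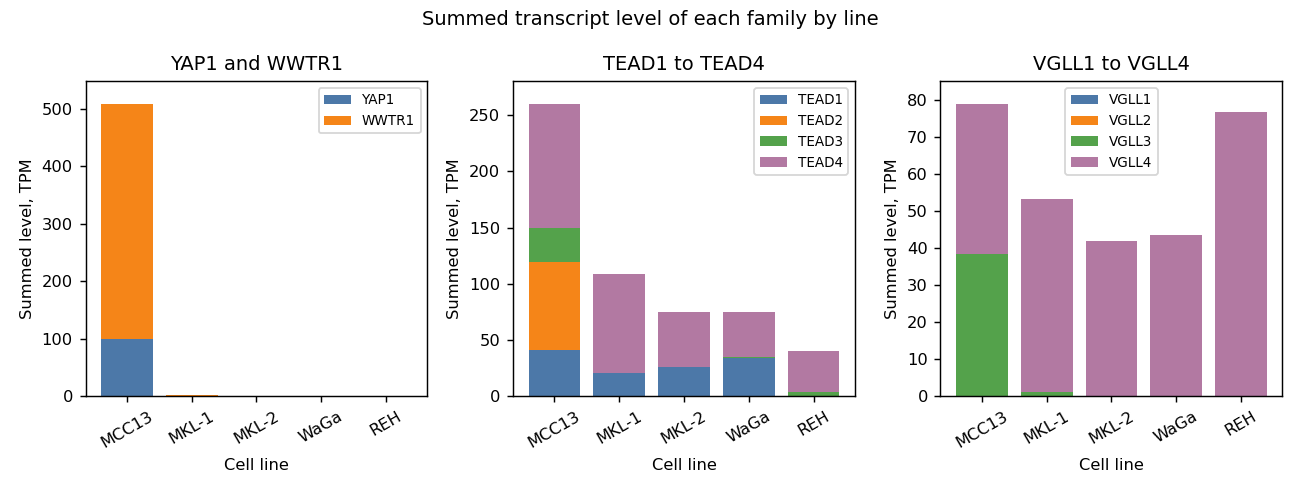
Summed TPM (y axis, from 0, with its own scale per panel) of the coactivator, TEAD and VGLL genes in each line (x axis), each bar split by gene. The coactivator bar of MCC13 reaches 508 TPM, the TEAD bars run from 259 TPM in MCC13 to 40.2 TPM in REH, and VGLL3 adds 38.1 TPM to the VGLL bar of MCC13.

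Set against each other within a line, the 3 families had a different balance in MCC13. The summed coactivator level was 1.96 times the summed TEAD level in MCC13, 0.0168 times in MKL-1, 0.00014 times in WaGa and 0 in MKL-2 and REH as listed. The VGLL4 level was 0.156 times the summed TEAD level in MCC13, against ratios of 0.477 (MKL-1), 0.555 (MKL-2), 0.580 (WaGa) and 1.91 (REH). In MCC13 the coactivators exceeded VGLL4 by 12.6-fold. Of the 10 genes, 8 reached 1 TPM in MCC13, 5 in MKL-1, and 3 each in MKL-2, WaGa and REH. In MKL-2 and WaGa these 3 were TEAD1, TEAD4 and VGLL4, in MKL-1 WWTR1 and VGLL3 came on top, and in REH the set was TEAD3, TEAD4 and VGLL4.

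MCC13 was compared with MKL-1, MKL-2 and WaGa with limma, a linear model fitted over 20698 genes on the scale log2(TPM + 1). Benjamini-Hochberg adjusted p under 0.05 counted as passing. The SE and p of limma combine the spread between lines with the variance expected from all genes at that level. For a gene near 0 in the other 3 lines, such as YAP1, they rest mostly on that expected variance. Of the 10 genes, 5 were higher in MCC13 (YAP1, WWTR1, TEAD2, TEAD3 and VGLL3), none was lower, 3 did not pass (TEAD1, TEAD4 and VGLL4) and 2 were not tested because no line reached 1 TPM (VGLL1 and VGLL2). Over all genes tested, 6.47% were higher in MCC13 and 2.47% lower, 8.95% in either direction. YAP1, TEAD2 and TEAD3 came into the test only through their level in MCC13, so their count is a description. The same held for 1134 of the 1340 genes called higher over the whole table. The difference in log2(TPM + 1) was 8.17 ± 0.86 for WWTR1 (SE, limma, adjusted p = 0.0254) and 6.65 ± 0.28 for YAP1 (adjusted p = 0.00855). TEAD2 differed by 6.23 ± 0.29 (adjusted p = 0.00855) and TEAD3 by 4.57 ± 0.52 (adjusted p = 0.0302). VGLL3 differed by 4.84 ± 0.64 (adjusted p = 0.0420). MCC13 was above each of the other 3 lines for these 5 genes, but also for TEAD1 and TEAD4, which did not pass, and for VGLL2, not tested. The share of all genes with MCC13 on top was not counted.

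For TEAD1, TEAD4 and VGLL4 the difference between MCC13 and the other 3 lines did not pass. The difference of TEAD1 was 0.62 (95% interval -0.51 to 1.76, limma, adjusted p = 0.386), although MCC13 held the highest of the 4 values. For TEAD4 it was 0.97 (95% interval -0.70 to 2.63, adjusted p = 0.364), and for VGLL4 -0.17 (95% interval -0.92 to 0.59, adjusted p = 0.704), where the median over all genes tested was -0.30. The intervals of TEAD1 and TEAD4 include differences of more than 3-fold, so a moderate difference was not detectable with these lines.

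The calls rested on a single MCC13 library, assumed to vary as the other 3 lines do, where permuting 1 line among 4 exactly allows no p below 0.25. With a pseudocount of 0.1 TPM, YAP1 and TEAD2 still passed while WWTR1, TEAD3 and VGLL3 did not (limma, adjusted p = 0.0985, 0.103 and 0.129), without the filter on low values TEAD3 and VGLL3 did not (adjusted p = 0.0504 and 0.0658), and with MKL-1, MKL-2 or WaGa left out no gene of the whole table passed (4414 to 4978 at unadjusted p under 0.05) while the 5 differences stayed between 4.41 and 8.67.

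**Figure D3:**
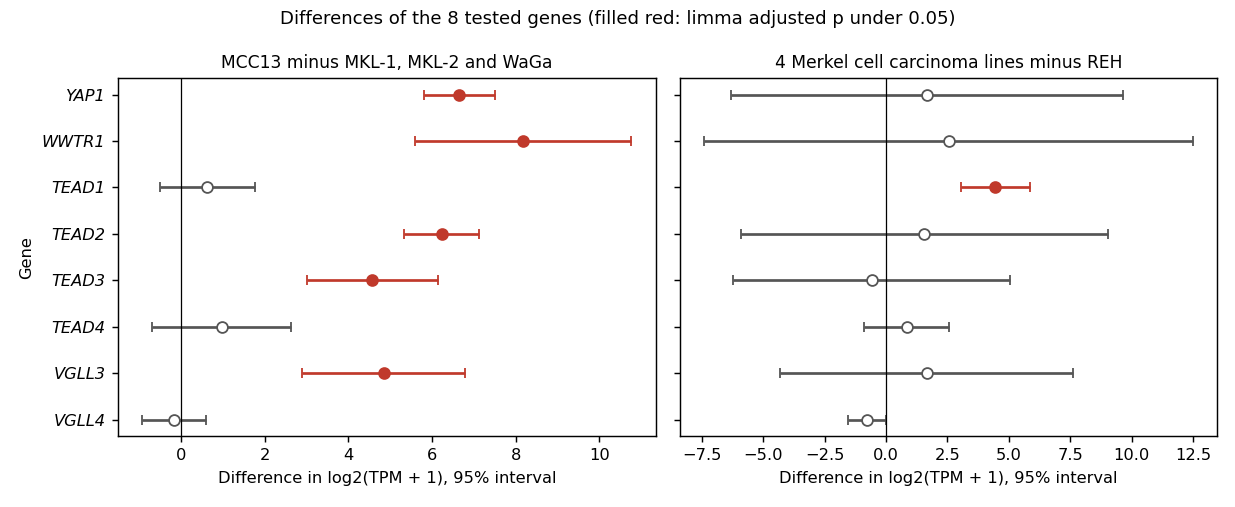
Differences in log2(TPM + 1) on the x axis for the 8 genes tested, with 95% intervals from limma, for MCC13 minus the other 3 Merkel cell carcinoma lines on the left and the 4 Merkel cell carcinoma lines minus REH on the right, and genes down the y axis. In the left panel 5 genes pass (filled), from 4.57 for TEAD3 to 8.17 for WWTR1, and in the right panel TEAD1 passes at 4.44 while VGLL4 lies at -0.78.

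The 4 Merkel cell carcinoma lines were then compared with REH over 22250 genes, to set the tumour type of the series against the pre-B line. TEAD1 was higher in the Merkel cell carcinoma lines, at 30.4 ± 8.91 TPM (SD, n = 4) against 0.397 TPM in REH. The mean was 76.6-fold that of REH, a ratio set by a value below 1 TPM in a single library. The difference in log2(TPM + 1) was 4.44 ± 0.54 (SE, limma, adjusted p = 0.0218), with all 4 lines above REH. It was the one gene of the 8 tested that passed, none being lower, against 1.09% of all genes higher and 4.15% lower, 5.24% in either direction. Without MCC13 the difference of TEAD1 was 4.29 (limma, adjusted p = 0.0207). With MKL-1, MKL-2 or WaGa left out it was 4.38 to 4.60 and did not pass (adjusted p = 0.0946 to 0.118), as for every gene of the table, where permuting 1 line among 5 exactly allows no p below 0.2.

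VGLL4 averaged 44.4 ± 5.24 TPM (SD, n = 4) in the Merkel cell carcinoma lines and 76.6 TPM in REH. All 4 lines were below REH, by -0.78 ± 0.29 on the log2(TPM + 1) scale (SE, limma, unadjusted p = 0.0493), and the adjusted p of 0.266 did not pass. TEAD4 averaged 71.9 ± 32.9 TPM (SD, n = 4) in the Merkel cell carcinoma lines against 36.4 TPM in REH, with a difference of 0.84 ± 0.66 (SE, limma, adjusted p = 0.584), and WaGa was 1.10-fold REH. For YAP1, WWTR1, TEAD2, TEAD3 and VGLL3 the spread within the Merkel cell carcinoma group was wide, since MCC13 was high and the other lines low, and adjusted p ran from 0.756 to 0.902. TEAD3 was the one of these 5 in which REH, at 3.32 TPM, stood above MKL-1, MKL-2 and WaGa. Without MCC13 its difference was -1.73 (limma, adjusted p = 0.119).

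MKL-1, MKL-2 and WaGa were each compared with the other 3 Merkel cell carcinoma lines in the same way. No gene passed in any of the comparisons (limma, 0% of 20698 genes, with 296, 638 and 467 at unadjusted p under 0.05), and none of the 8 genes tested reached unadjusted p under 0.05. MCC13 is among the other lines in each, which widens the spread. MKL-1 held more WWTR1 and VGLL3 than MKL-2 and WaGa, but both genes were under 2 TPM in it. For WWTR1 the difference of MKL-1 from the other 3 lines was -1.39 (limma, adjusted p = 0.9999), and 1.503 with MCC13 left out (adjusted p = 0.977).

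Genes that YAP and TAZ are known to induce were next counted, from a list of 22 target genes. The list shares LATS2, PTPN14 and AMOTL2 with the Hippo list described further on. In MCC13, 14 of the 21 genes tested were higher and none was lower than in the other 3 lines, where 6.47% and 2.47% of all genes were. Of the 14, 9 reached 1 TPM in MCC13 alone among these 4 lines and entered the test through it, so the count describes the list and supports no more. The other 5 were CTGF, CYR61, DOCK5, GADD45A and TGFB2. The median difference was 5.24, against -0.30 over all genes tested. ANKRD1, a muscle ankyrin-repeat protein and standard YAP reporter, stood at 2320.1 TPM in MCC13, was listed at 0 in MKL-1, MKL-2 and REH, and stood at 0.0214 TPM in WaGa. CTGF and CYR61, secreted matrix proteins, stood at 884 and 1849.7 TPM in MCC13, against 0.289 to 3.06 TPM and 2.88 to 6.57 TPM in the other 3 Merkel cell carcinoma lines. AXL, a receptor tyrosine kinase, stood at 579 TPM in MCC13, against 0.0455 to 0.268 TPM, and MYOF, a membrane repair protein, at 524 TPM in MCC13, against 0.0353 to 0.356 TPM. The differences of these 5 genes ran from 8.30 for CYR61 to 11.17 for ANKRD1 (limma, adjusted p from 0.00855 to 0.0244). With a pseudocount of 0.1 TPM 9 targets passed, and CTGF did not (adjusted p = 0.0607). Against REH, none of 21 targets passed over the 4 Merkel cell carcinoma lines (limma, 2 at unadjusted p under 0.05), with a median difference of 1.55 against 0.18 over all genes, of which 1.09% were higher and 4.15% lower. Without MCC13, 15 targets were tested, with a median difference of 0.52 against 0.20 over all genes. LATS2 and NT5E were then lower than in REH (limma, adjusted p = 0.00885 and 0.0276), where 4.89% of all genes were higher and 8.42% lower. The mesenchymal markers summed to 9918.9 TPM in MCC13 against 39.1 to 1317.9 TPM across MKL-1, MKL-2 and WaGa. MCC13 was thus highest for both lists, and the part of these markers in the differences was not tested. Across MKL-1, MKL-2 and WaGa the target sums were 153.5, 188.8 and 172.9 TPM. The mesenchymal sums, in the same order of lines, were 120.9, 39.1 and 1317.9 TPM. Of these sums, CD44 alone held 107.0, 10.2 and 1288.6 TPM. The target sums of these 3 lines lay too close together to show whether the lists move jointly, which was not tested. S100A4 was lowest in MCC13.

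**Figure D4:**
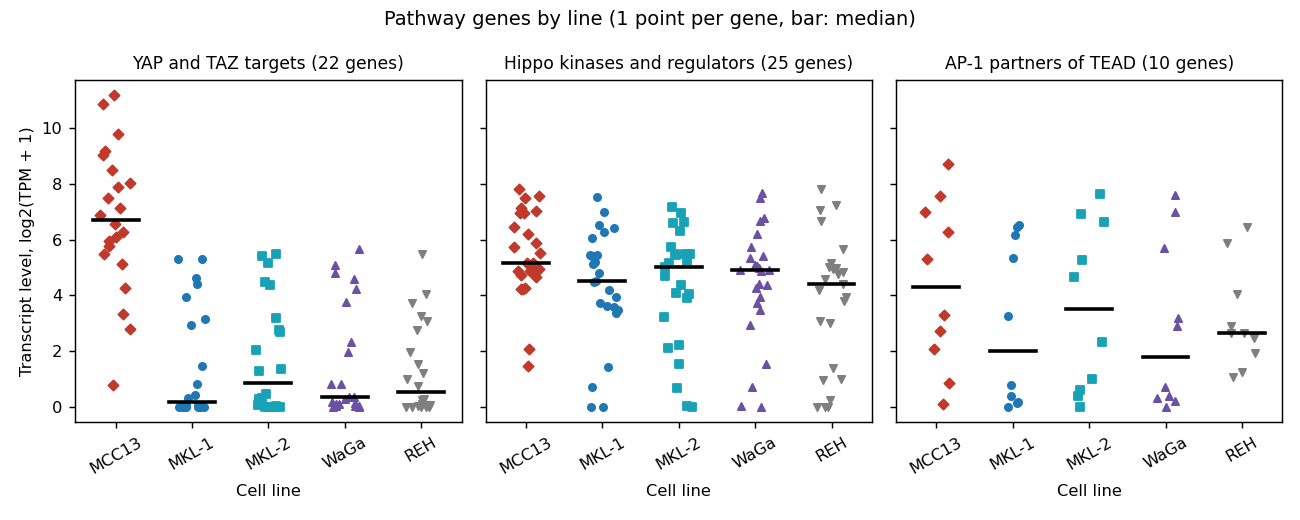
Transcript level, as log2(TPM + 1), of the genes of 3 pathway lists in each line (x axis), with 1 point per gene and a bar at the median of the list. The target genes lie higher in MCC13, with a median of 105 TPM against 0.138 to 0.881 TPM in the other 3 Merkel cell carcinoma lines and 0.455 TPM in REH, and the Hippo list has medians from 20.2 to 35.1 TPM over the 5 lines.

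Most Hippo kinases and regulators were expressed in every line. Of 25 genes on this list, 25 reached 1 TPM in MCC13, 22 in each of MKL-1, MKL-2 and WaGa, and 19 in REH. The core kinases MST1 and MST2 (STK4 and STK3) stood at 17.7 and 29.6 TPM in MCC13, against 17.5 to 29.03 and 24.9 to 29.0 TPM in the other 3 Merkel cell carcinoma lines and 49.5 and 17.1 TPM in REH. LATS1, a kinase that phosphorylates YAP, stood at 25.3 TPM in MCC13, against 36.1 to 41.9 TPM in the other 3 lines and 14.4 TPM in REH. Its paralogue LATS2, which is also a YAP target, stood at 17.97 TPM in MCC13, was listed at 0 in the other 3 Merkel cell carcinoma lines, and stood at 7.44 TPM in REH. These STK3, STK4 and LATS1 values were chosen after they were seen.

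In MCC13, 3 of the 25 Hippo genes were higher (PTPN14, LATS2 and WTIP) and 1 was lower (AMOTL1), with a median difference of 0.20 against -0.30 over all genes, where 6.47% were higher and 2.47% lower. All 3 genes called higher reached 1 TPM in MCC13 alone among these 4 lines and entered the test through it. PTPN14, a phosphatase that retains YAP in the cytoplasm, had 139 TPM in MCC13, the highest of the other 3 lines having 0.0153 TPM (difference 7.12 ± 0.30 (SE), limma, adjusted p = 0.00855). LATS2 differed by 4.25 ± 0.19 (SE, limma, adjusted p = 0.00855). AMOTL1, an angiomotin that binds YAP at junctions, stood at 28.2 TPM in MCC13, against 95.2 to 126 TPM in the other 3 Merkel cell carcinoma lines (difference -1.92 ± 0.26 (SE), limma, adjusted p = 0.0425), and did not pass without the filter (0.0509) or without the variance trend (0.0581). WTIP, a LIM protein of the AJUBA family, stood at 3.20 TPM in MCC13, against 0.575 to 0.647 TPM (limma, adjusted p = 0.0429). It did not pass with a pseudocount of 0.1 TPM (limma, adjusted p = 0.0965), without the filter (0.0669) or without the variance trend (0.0624). FRMD6, AJUBA and AMOTL2 had large differences of 4.63, 3.36 and 2.65 that did not pass (limma, adjusted p = 0.155, 0.223 and 0.149). Against REH, the Merkel cell carcinoma lines had more AMOTL1 and WWC1, at 28.2 to 126 TPM and 28.1 to 72.0 TPM, and stood at a listed 0 in REH (differences 6.30 and 5.41, limma, adjusted p = 0.0354 and 0.0197), where 1.09% of all genes were higher. Without MCC13, WWC2, listed at 0 in REH, and LATS2 differed from REH by 3.71 and -3.08. The median difference of the list was then 0.16, against 0.20 over all genes.

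AP-1 factors, which often occupy the same enhancers as TEAD, differed gene by gene. In MCC13, 2 of the 8 AP-1 genes tested were higher, FOSL1 and BATF3, and none was lower at adjusted p under 0.05 (JUND was lower at unadjusted p = 0.0411), with a median difference of 1.21 against -0.30 over all genes, of which 6.47% were higher and 2.47% lower. Both reached 1 TPM in MCC13 alone among these 4 lines and entered the test through it. FOSL1, which encodes FRA1, stood at 415 TPM in MCC13, against 0.136 to 0.316 TPM in the other 3 lines and 1.39 TPM in REH (difference 8.40 ± 0.37 (SE), limma, adjusted p = 0.00855). BATF3 stood at 8.83 TPM in MCC13, against 0.292 to 0.981 TPM in the other 3 lines and 6.39 TPM in REH (difference 2.71, limma, adjusted p = 0.0466), and did not pass with a pseudocount of 0.1 TPM (adjusted p = 0.101), without the filter (0.0755) or without the variance trend (0.0547). FOSL2 (125.9 TPM in MCC13), ATF3 (3.21 TPM) and JUND (38.3 TPM) differed by 3.37, -2.53 and -1.72 and did not pass (limma, adjusted p = 0.133, 0.277 and 0.170). Against REH, BATF was lower in the Merkel cell carcinoma lines, at 0.0650 TPM or less against 5.29 TPM in REH (difference -2.63, limma, adjusted p = 0.0064), as 1 of 10 AP-1 genes tested, where 4.15% of all genes were lower. Without MCC13, FOSL1 and BATF3 differed from REH by -0.96 and -2.30, where FOSL1 was low in REH also, at 1.39 TPM. The median difference of the list was then -0.11, against 0.20 over all genes.

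Genes with the most similar profile over the 5 lines were found by the Euclidean distance of log2(TPM + 1), with the 3 nearest named genes taken for each of the 8 genes above 1 TPM in some line. A distance of 1 is a difference of 1 log2 unit in a single line. The nearest to YAP1 were TFAP2C, ALPK2 and TNFRSF10D, at distances of 0.07, 0.08 and 0.11, each at 94.996 to 99.9 TPM in MCC13 and below 0.06 TPM in the other lines. The nearest to WWTR1 were farther, CDC42EP1 at 0.86, ANXA1 at 1.16 and FSTL1 at 1.24. PLA2G16, SNX7 and CCDC80 (itself on the target list) lay nearest to TEAD2 at 0.16 to 0.22, and PRR16, C1orf106 and VEPH1 nearest to VGLL3 at 0.54 to 0.59. TEAD3 was nearest to KCNMB1 (0.50), SPRY4 (0.79) and MAMLD1 (0.81). TEAD1 was nearest to SORD (0.76), TMEM178B (0.77) and ZNF205 (0.86), which were also low in REH. TEAD4 lay nearest to VMP1, MRPS27 and LRRC8A (0.44 to 0.49), and VGLL4 to AGBL5, ELP2 and KIAA0141 (0.25 to 0.29), each of them expressed in all 5 lines. These distances describe 5 libraries.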

How the data were processed

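RNA of 5 cell lines was measured by RNA sequencing of oligo-dT enriched, directional libraries, per the labels' protocols. The authors deposited gene-level TPM values. The submitters' processing notes list SAMtools 0.1.19, StringTie 1.3.5, STAR 2.4.5b and bcl2fastq 2.20, and hg19 and GRCh37 as builds; their roles and the annotation were not stated in the sources used. TPM keeps no depth, so the depth behind a value is unknown. Of the TPM columns, 1 matched no sample and was not used, and PAX5 exon values were not used. Promoter sequences are RefSeq's (GRCh38.p14), another build, and serve as sequence only.

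The tests took genes that reached 1 TPM in any line compared and used limma 3.58.1 (R 4.3.3; variance trend, 2-sided, Benjamini-Hochberg over all genes tested) on log2(TPM + 1), a scale that understates changes of low genes. Levels, sums and distances were computed in Python 3.11.15. The 10 genes, the pathway lists and the markers were chosen with earlier results of these data known. Named were the 10 genes, up to 5 genes per pathway list with the largest MCC13 difference, and 3 nearest genes each; STK3, STK4, LATS1, DOCK5, GADD45A, TGFB2, NT5E, WTIP, AMOTL1, WWC1, WWC2 and BATF were named after their values were seen. No sequences of the proteins were used. Alternatives were another pseudocount, 2 other filters, quantile normalization, no variance trend, and leaving out lines.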

Additional observations from a re-analysis of the deposited data

Results flagged for a closer look

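YAP1, TEAD2 and VGLL2 were picked out because MCC13 lay far from the other Merkel cell carcinoma lines. On the log2(TPM + 1) scale the gap between MCC13 and the nearest of MKL-1, MKL-2 and WaGa, divided by the range of the 4 lines, was 0.998 for YAP1, 0.966 for TEAD2 and 1 for VGLL2, above Dixon's 95% critical value for 4 lines. Chance alone picks out about 1 group in 20, and the share of all genes past this value was not computed. The ratio comes near 1 for any gene expressed in MCC13 and near 0 in the other 3 lines. Of the 20698 genes tested, 1466 reached 1 TPM in MCC13 alone among these 4 lines. YAP1 and TEAD2 stood at 0.163 TPM or less in the other 3 lines. VGLL2 stood at 0.202 TPM in MCC13 and at a listed 0 in the other 3 lines, so its ratio describes a level close to 0. WWTR1 and TEAD3 stayed just under the critical value, at 0.827 and 0.814.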

How the results depend on the processing

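No paired analysis was possible because each line had 1 library and the replicate numbers only name lines. Of 317 values of the 8 genes tested under other settings, 288 kept their direction and their side of the threshold, 23 kept their direction but no longer passed, and 6 changed sign, none of them past the threshold. Only a gene that passed at first could lose its call, and most of the 317 values belonged to comparisons or genes without one. All 23 came from the genes that had passed, so 288 of 317 does not measure how stable the calls were. Sign changes were MKL-1 against the other 3 lines with a pseudocount of 0.1 TPM (WWTR1 0.28, VGLL3 0.57), and WaGa against the other 3 with that pseudocount (TEAD3 0.18). With a line left out, MKL-1 ranged from -2.83 to 1.503 for WWTR1 and from -1.53 to 1.12 for VGLL3, both positive without MCC13, and WaGa from -0.10 to 0.076 for VGLL4, positive without MKL-1. In MCC13, 5 genes of the family were higher, 2 with the pseudocount of 0.1 TPM, and 0 with any of MKL-1, MKL-2 or WaGa left out. Against REH, 1 was higher, and 0 to 1 with a line left out. Over all genes, MCC13 had 1340 higher and 512 lower, 2807 higher without the filter, 543 higher among genes averaging 5 TPM or more, and 0 in each direction with a line left out. Against REH 243 genes were higher and 923 lower, 403 and 482 with the pseudocount of 0.1 TPM, 160 and 128 among genes averaging 5 TPM or more, 3346 lower without the filter, 614 lower without the variance trend, and 0 to 1038 higher and 0 to 1790 lower with a line left out (the highest without MCC13). MKL-2 had 602 higher and 2 lower without the filter, none of them with it. With a line left out fewer samples enter the fit, and for the other settings the cause was not tested. Quantile normalization moved the median of all genes to -0.13 in MCC13, against -0.30 as deposited, and to 0.03 against REH, against 0.18 as deposited, and changed no call of the 8 genes.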

Other observations

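Protein-coding neighbours of the 10 genes, in the gene order of RefSeq (GRCh38.p14), were looked up after the levels were seen, and no test was run on them. Those given here are a selection, mainly beside the 5 genes higher in MCC13, and other neighbours are left out. BIRC3 and BIRC2, inhibitors of apoptosis that lie next to YAP1 on one side, stood at 74.3 and 84.5 TPM in MCC13. In MKL-1, MKL-2 and WaGa BIRC3 stood at 0.0326 to 0.527 TPM and BIRC2 at 7.10 to 13.9 TPM, with 1.90 and 15.6 TPM in REH. On the other side of YAP1, CFAP300 (C11orf70 in the table) reached 2.92 TPM in MCC13, 0 to 0.0357 TPM in the other 3 lines and a listed 0 in REH, and CEP126 (KIAA1377) stood at 2.50 TPM in MCC13 against 8.45 to 14.1 TPM in the other 3 lines and 0.0319 TPM in REH. Near WWTR1, TM4SF1 had 1135.7 TPM in MCC13, the highest of the other 4 lines having 0.0672 TPM, while TM4SF4, which lies between them, was below 1 TPM in every line. COMMD2, on the other side of WWTR1, was expressed in all 5 lines, at 44.7 TPM in MCC13, 17.3 to 61.01 TPM in the other 3 lines and 32.0 TPM in REH. DKKL1 beside TEAD2 stood at 2.13 TPM in MCC13 and was listed at 0 in the other 4 lines, while CD37 on its other side stood at 2.92 TPM in MCC13, 0.381 to 1.20 TPM in the other 3 lines and 9.98 TPM in REH. RPL10A beside TEAD3 and CHMP2B beside VGLL3 were expressed in all 5 lines, and CADM2, the other neighbour of VGLL3, stood at 0.172 TPM in MCC13, 5.71 to 175 TPM in the other 3 lines and a listed 0 in REH. PARVA, an actin-linked adhesion protein gene next to TEAD1, stood at 110.05 TPM in MCC13. It had 0.267 to 2.24 TPM in the other 3 lines and a listed 0 in REH. TEAD1 itself lay within 1.97-fold over the 4 Merkel cell carcinoma lines.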
